A study of Mus musculus with 10 samples.

Results

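The genes described here are 8 genes of MHC class II antigen presentation in mouse olfactory epithelium: Cd74, H2-Aa, H2-Ab1, H2-Eb1, H2-DMa, H2-DMb1, H2-Oa and Ciita. They were chosen by name, and all 8 were found among the 24421 genes of the table that the authors deposited. The tissue came from untreated C57BL/6 mice aged 6 months, with 4 biological replicates of genotype Apoe3 and 6 of genotype Apoe4, 2 human variants of APOE, which encodes a carrier of lipids between cells. The labels do not state how they are expressed or the sex of the mice, and by the labels all animals share background, age and tissue. Poly(A)-selected RNA was sequenced, and the question is which transcripts differ between the alleles.

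MHC class II molecules are heterodimers on antigen-presenting cells such as B cells, dendritic cells and macrophages, where they show peptides from engulfed proteins to CD4+ T cells. In the mouse H2 complex of the C57BL/6 background the dimer made is I-A, the product of H2-Aa (alpha chain) and H2-Ab1 (beta chain). The partner of the beta chain H2-Eb1, encoded by H2-Ea, is not made in this background. Cd74 is the invariant chain, which escorts new class II dimers to the endosome and fills their groove. H2-DMa and H2-DMb1 form H2-M, which swaps the remaining invariant chain peptide for antigen, and H2-Oa is the alpha chain of H2-O, which restrains H2-M and is made mainly in B cells and the thymus. Ciita is the coactivator that switches these genes on through proteins bound at the X and Y boxes of their promoters.

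RefSeq promoter windows (GRCm38.p6, 250 bases before to 50 after a gene start) were found for 5 of the 8 genes, namely H2-Aa, H2-Eb1, H2-DMa, H2-DMb1 and H2-Oa. They were searched on both strands for an X box core, AGNAAC, and for the Y box, ATTGG, an inverted CCAAT. Of 32851 windows of this length, 48.1% held the first motif and 37.4% the second. An X box core followed by a Y box with 20 to 40 bases between was found in 1.14% of windows, and in those of 3 of the 5 genes, H2-Eb1, H2-DMb1 and H2-Oa. The stretches are shown, each on the strand of its gene, because these boxes are where the class II genes share a control element, with the matched motifs in capitals. H2-Ob, the beta chain gene of H2-O and not among the 8 genes, is shown for comparison.
H2-Eb1: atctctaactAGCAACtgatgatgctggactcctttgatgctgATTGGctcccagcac
H2-DMb1: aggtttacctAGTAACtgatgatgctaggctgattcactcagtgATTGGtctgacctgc
H2-Oa: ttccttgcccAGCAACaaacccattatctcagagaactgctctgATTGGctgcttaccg
H2-Aa: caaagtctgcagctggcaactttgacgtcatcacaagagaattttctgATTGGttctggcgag
H2-Ob: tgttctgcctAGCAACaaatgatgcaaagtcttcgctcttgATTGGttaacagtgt
These stretches lie at chr17:34305765-34305822 (H2-Eb1, plus strand), chr17:34153086-34153144 (H2-DMb1, plus strand), chr17:34092292-34092350 (H2-Oa, plus strand), chr17:34287857-34287919 (H2-Aa, minus strand) and chr17:34238807-34238862 (H2-Ob, plus strand).

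The X box core and the Y box were 27 bases apart in H2-Eb1, 28 in H2-DMb1, 28 in H2-Oa and 25 in H2-Ob. The X box core began 92 bases before the annotated start in H2-Eb1, 95 in H2-DMb1, 77 in H2-Oa and 88 in H2-Ob. In H2-Aa only the Y box matched, 48 bases before the start. Its stretch also holds ggcaac, which differs from AGNAAC in the first letter, so the missing match does not mean that an X box is absent. Neither of the 2 windows of H2-DMa held the pair. A match of letters is a description of the sequence and says nothing on which proteins bind there.

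Ordered by transcript level, the invariant chain stood first and H2-Oa last. Levels are the authors' means of normalized counts over all 10 libraries, divided by the length of the longest annotated transcript. Per kilobase, Cd74 reached 1804 normalized counts, H2-Ab1 862, H2-Eb1 597, H2-Aa 286, H2-DMb1 152, H2-DMa 106, Ciita 11.7 and H2-Oa 7.03. With the median length of each gene's transcripts the order of H2-Aa and H2-Eb1 turned (943 and 920), and the other 6 genes kept their places, from 2078 for Cd74 to 18.2 for Ciita and 7.66 for H2-Oa. The genes of H2-M thus lay below those of the surface dimer by either length. The table gives no spread for a level, so whether neighbours in this order differ was not tested.

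The olfactory origin of the RNA is visible in the means of 8 markers of olfactory sensory neurons, from 8130 to 113676 normalized counts in the authors' deposited table. Library depths, read from genes with a single read, were about 14900000 to 20100000 assigned reads. The authors tested 16050 genes, of which 125 passed an adjusted p of 0.05. The 4 tested genes of the Y chromosome were among those lower in Apoe4, and the authors' deposited table gives them log2 fold changes from -3.72 to -2.80. A difference in sex between the groups and the difference in genotype cannot be told apart for any gene below. The invariant chain gene lies on chromosome 18, Ciita on chromosome 16 and the 6 H2 genes on chromosome 17.

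All 8 genes had negative fold changes, meaning lower values in Apoe4, and none passed the test. Of all tested genes, 48.9% had negative folds. At an adjusted p under 0.05 by the authors' DESeq2 test, 0 of the 7 tested genes changed, against 0.779% of all genes tested. At an unadjusted p under 0.05, all 7 were on the lower side, where 5.76% of all tested genes stood. H2-Oa, with a mean under 10, was outside the authors' adjustment. The median log2 fold change of the 7 genes was -0.26, and that of all tested genes was 0.0026. Since the genes were chosen with earlier results of these data known, the counts describe them and are no test of the group. In bulk tissue, fewer antigen-presenting cells and less class II RNA per cell cannot be told apart.

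**Figure D1:**
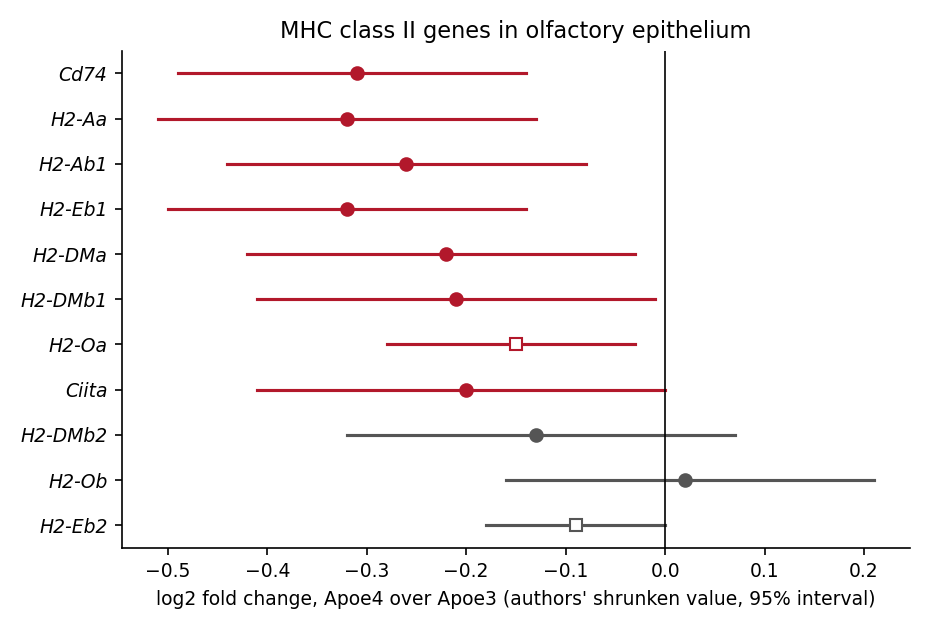
Log2 fold change of each class II gene, Apoe4 (n = 6) over Apoe3 (n = 4), as shrunken by the authors' fit, with 95% intervals as lines. Red marks the 8 genes described here and grey H2-DMb2, H2-Ob and H2-Eb2, and open squares mark genes outside the adjustment for a low mean. All red points lie left of 0, from -0.32 to -0.15, while H2-Ob lies at 0.02.

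The invariant chain and the alpha and beta chains had the largest shrunken values. Cd74 (chromosome 18, 60803849 to 60812652, protein coding) is listed by the authors' deposited table at a mean of 2543 normalized counts and -0.31 ± 0.09 (standard error) on the log2 scale, with an adjusted p of 0.0586 by DESeq2. By the shrunken fold, that is a level 19.6% lower in Apoe4, with a 95% interval from 9.09% to 28.8%. Percentages and intervals here and below are of shrunken folds, and the unshrunken change of a gene can lie outside them. For H2-Eb1 (chromosome 17, 34305867 to 34316674) the authors' deposited table has a mean of 996, a log2 difference of -0.32 ± 0.09 and an adjusted p of 0.0692. This corresponds to 19.9% less (95% interval 9.07% to 29.5%).

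H2-Aa (chromosome 17, 34282744 to 34287823) had, by the authors' deposited table, a mean of 922, a log2 difference of -0.32 ± 0.10 and an adjusted p of 0.0829. The 95% interval of its shrunken fold reached from 8.89% to 29.8% lower. H2-Ab1, which encodes the partner chain (chromosome 17, 34263227 to 34269418), was at -0.26 ± 0.09 around a mean of 1044, and the authors' deposited table puts its adjusted p at 0.226. The intervals of the 4 genes overlapped over most of their length, and no test between genes was possible without values per library. H2-Eb1 is the chain without a partner in this background, and its fold was close to that of H2-Aa. Over the whole table, 103 of 16050 tested genes (0.642%) had a Wald statistic (the fold divided by its error) at or under -3.3, and Cd74, H2-Eb1 and H2-Aa were among them.

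The peptide exchange genes followed at smaller shrunken values. H2-DMa (chromosome 17, 34119693 to 34139101) had a mean of 213, and the authors' deposited table places it at -0.22 ± 0.10 with an adjusted p of 0.414. For H2-DMb1 (chromosome 17, 34153191 to 34160229), with the same mean of 213, the authors' deposited table has -0.21 ± 0.10 and an adjusted p of 0.472. The interval of H2-DMb1 reached from 0.443% to 24.7% lower. H2-DMb2, a close paralogue of H2-DMb1 in the neighbouring position, has -0.13 and an adjusted p of 0.697 by the authors' deposited table, and reads that match both copies could have been dropped or split. The RefSeq spans of H2-DMa and Brd2 overlap, and so do those of Ciita and Dexi, of H2-Oa and BC051537 and of Cd74 and Mir5107.

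Ciita (chromosome 16, 10480014 to 10531064), the coactivator, had a mean of 70.3 and stood at -0.20 ± 0.10 on the log2 scale, for which the authors' deposited table gives p = 0.0497 unadjusted and 0.485 adjusted. Its direction was that of its target genes, and its 95% interval reached from 0.0179% to 24.7% lower. Which of the 7 tested genes was measured least precisely cannot be read from the deposited errors, for the reason given next.

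The deposited folds were shrunk towards 0, which understates changes of imprecisely measured genes. The shrinkage can be undone approximately, but an error under the ceiling of 0.105 fits 2 unshrunken folds, one with a small and one with a large spread between libraries. For Cd74 they were -0.41 with a relative spread of 12.7% within a group, or -1.31 with a spread of 40.3%. For H2-Aa they were -0.46 with 14.6% or -1.10 with 35.2%, and for H2-Eb1 -0.44 with 13.7% or -1.19 with 37.3%. For H2-Ab1 they were -0.34 or -1.02, for H2-DMa -0.35 or -0.63 and for H2-DMb1 -0.34 or -0.54. For Ciita, near the ceiling, they were close to each other at -0.36 and -0.48. With the smaller fold of each gene, H2-Ab1, H2-DMa, H2-DMb1 and Ciita were alike, so the order of the shrunken folds need not be that of the changes. The table does not tell which of both holds for a gene of high mean, and the p-values are the same for both.

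H2-Oa is the 1 gene of the 8 whose reads could be followed into single libraries. A gene's deposited mean is a sum of whole reads, each worth a fixed step per library, and for a low gene only 1 combination of 10 whole numbers gives the printed digits. Exactly 1 combination was found for each of 26 low genes searched, H2-Oa and 25 genes of the related lists. The libraries carry no sample label in this recovery and are named here by their size factor, the depth relative to the others. In 4 of them genes with a lone read had negative deposited folds, and in 6 positive ones, so by number the 4 are the Apoe3 libraries and the 6 the Apoe4 libraries. The log2 ratio of the recovered reads between these sides differed from the unshrunken fold of the table by a median of 0.02 over the 26 genes, and by at most 0.41.

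H2-Oa had 93 reads in all. On the Apoe3 side it had 8 reads in the library of size factor 1.141, 19 at 1.086, 26 at 0.918 and 6 at 0.859. On the Apoe4 side it had 4 reads at 1.156, 4 at 1.051, 3 at 1.026, 4 at 0.987, 14 at 0.960 and 5 at 0.891. The highest 2 libraries were both on the Apoe3 side and held 45 of the 93 reads (48.4%), while the sides overlapped, since the library with 14 reads was on the Apoe4 side. The normalized mean was 5.74 on the Apoe4 side and 2.60 times as high on the Apoe3 side, where the shrunken fold in the authors' deposited table was -0.15 with an error of 0.07 (unadjusted p = 0.0190). When any 1 library was left out the ratio lay between 1.83 and 3.77, and without the library of size factor 0.918 it was 1.83. Without both of the highest libraries it was 1.22, a value lowered by construction, since both were picked for their high reads and lie on the Apoe3 side.

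The same 2 libraries held most reads of the low B cell genes. Summed over Ms4a1 (CD20), Pax5, Cr2, Fcer2a (CD23) and Tnfrsf17, they had 37 reads at size factor 1.086 and 49 at 0.918, and the other 8 libraries had 6 to 12 each. In these libraries, in this order, Ms4a1 had 16 and 14 of its 54 reads, Fcer2a 13 and 10 of 39 and Tnfrsf17 3 and 4 of 13. Cr2 had 4 and 16 of 41 and Pax5 1 and 5 of 12, so these genes were highest in the library of 0.918 but not in that of 1.086, where other libraries had as many or more. These 5 are the genes of the B cell and plasma cell list that were low enough to be recovered, of 12 in the table. Reads of 6 low T cell genes did not gather in these libraries, with 31 and 47 reads there and 13 to 51 in the other 8. Low dendritic cell genes (Xcr1, Batf3 and Cd207) had 11 and 12 reads there, and 5 to 18 in the others. Summed over 5 low genes of innate lymphoid and mast cells, the libraries at 1.086 and 0.918 had 47 and 39 of 209 reads, and the other 8 had 7 to 21 each. Within that list the mast cell proteases Mcpt4 (22 and 15 of 66 reads) and Cpa3 (18 and 11 of 59) were highest there. Il23r, a receptor of innate lymphoid cells (3 and 8 of 56), and the IgE receptor chain genes Ms4a2 (1 and 0 of 6) and Fcer1a (3 and 5 of 22) had as many or more reads in other libraries.

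H2-Eb2, a class II beta chain gene beside H2-Eb1, had 34 reads. On the Apoe3 side it had 3 reads at size factor 1.141, 5 at 1.086, 10 at 0.918 and 5 at 0.859. On the Apoe4 side it had 2 reads at 1.156, 0 at 1.051, 0 at 1.026, 6 at 0.987, 1 at 0.960 and 2 at 0.891. The ratio of the Apoe3 to the Apoe4 side was 3.24, and 2.28 without both libraries named above. Leaving out the library of size factor 0.987 gave 5.97. The search was limited to means under 9.5 and was not run for Cd74, H2-Eb1, the I-A and H2-M genes and Ciita. How their reads fall over the libraries, and the part that the B cell and mast cell reads have in their folds, was not tested.

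**Figure D2:**
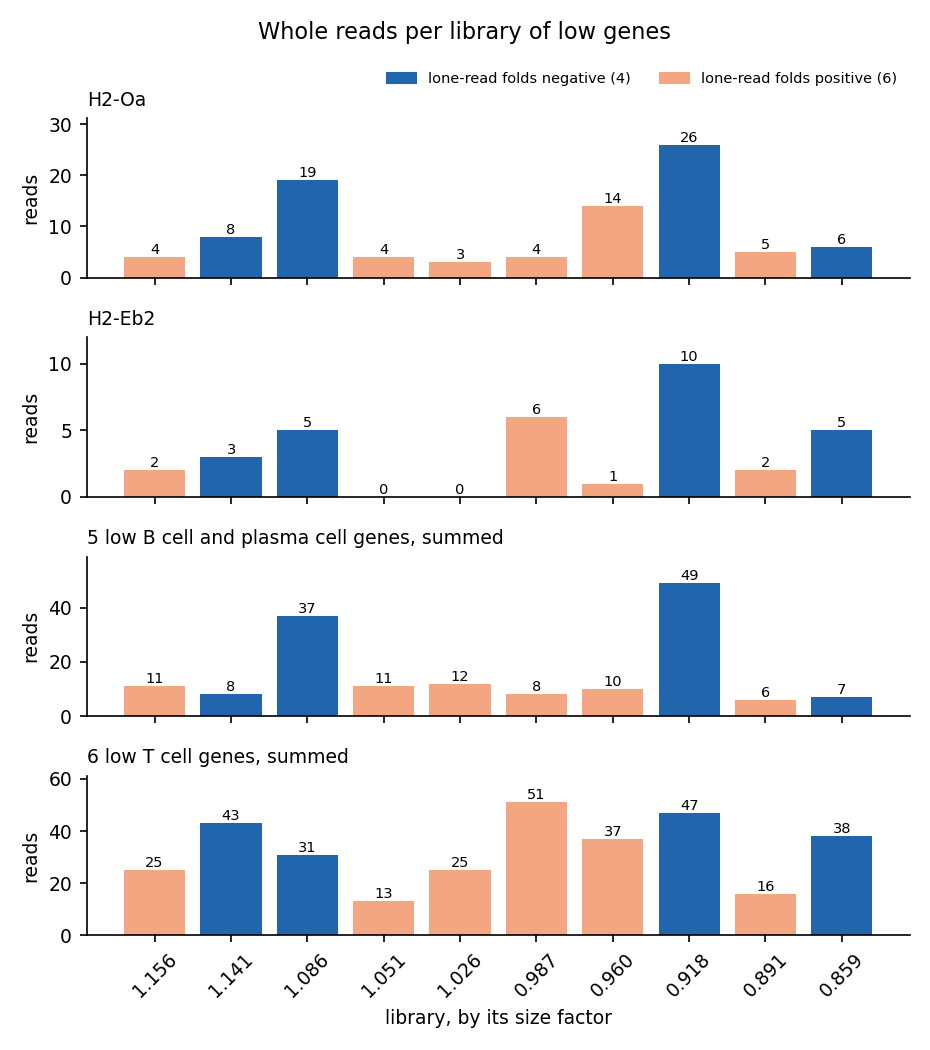
Whole reads of H2-Oa, H2-Eb2, 5 low B cell and plasma cell genes (summed) and 6 low T cell genes (summed) in each of the 10 libraries, ordered by size factor on the x axis, with each value above its bar. Blue bars are the 4 libraries whose lone-read folds are negative and orange bars the 6 with positive ones. The libraries at 1.086 and 0.918 have 37 and 49 B cell reads, against 6 to 12 elsewhere, and are also the highest for H2-Oa at 19 and 26.

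Across 252 kb of the class II region (chromosome 17, 34092379 to 34344645) members of the group alternate with other genes. None of the 12 tested genes of this region passed the authors' DESeq2 test (5 of the 8 genes described here and 7 others), and 6 of the 12 had an unadjusted p under 0.05 on the lower side, where 5.76% of all tested genes stood. These were 5 of the genes described here and Psmb9. Brd2, a chromatin reader that lies between H2-Oa and H2-DMa, has a value that rounds to 0.00 and an adjusted p of 0.988 by the authors' deposited table. Psmb9, an immunoproteasome subunit, had the lowest value of the 7 others, which the authors' deposited table gives as -0.26 with an adjusted p of 0.349. The peptide transporter genes Tap1 and Tap2, which serve class I molecules, have -0.16 and -0.06 by the authors' deposited table, and Psmb8 has -0.13. H2-Ob, whose promoter has the same pair of boxes as H2-Eb1, had a mean of 30.7 and the highest value of the region, 0.02 with an adjusted p of 0.954 by the authors' deposited table. H2-Ea-ps, the pseudogene of the missing alpha chain, was listed at 0.

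**Figure D3:**
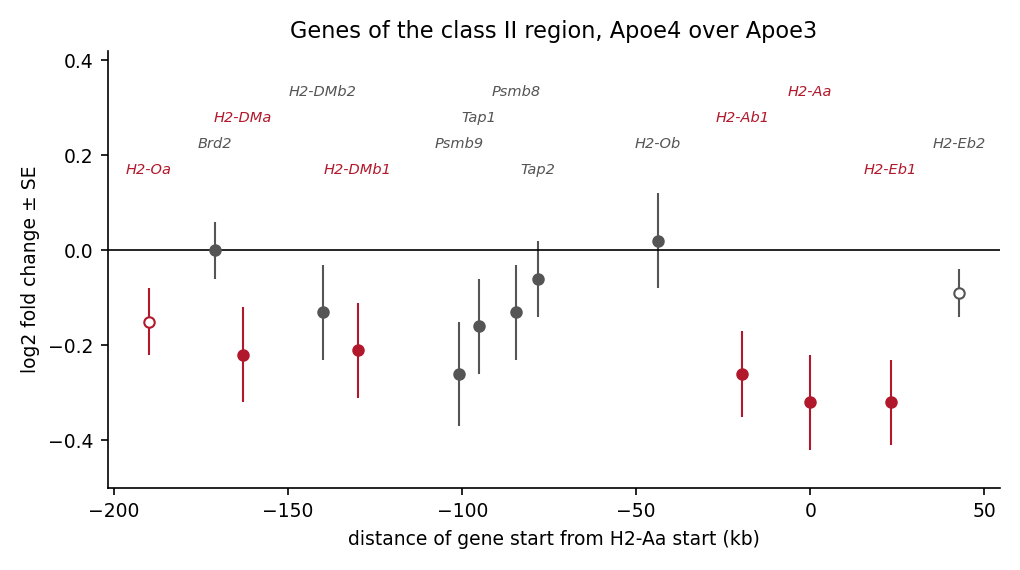
Log2 fold change with its standard error (y axis) of the genes of the class II region, placed by the distance of their start from that of H2-Aa in kb (x axis). Red marks the genes described here, grey the others, and open circles genes outside the adjustment. H2-Ab1, H2-Aa and H2-Eb1 lie lowest together with Psmb9, Brd2 lies at 0.00 and H2-Ob, the highest, at 0.02.

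Lists of genes that act with class II did not have members past the test. Among 15 transcription factors and coactivators of class II promoters, 0 passed and the median was -0.05. By the authors' deposited table the X box factor genes Rfx5 and Rfxank were at 0.03 and -0.01, Creb1, whose product also binds there, at 0.20 (adjusted p = 0.305) and the Y box factor gene Nfyc at -0.17 (adjusted p = 0.438). Of 15 genes of lysosomal antigen processing 0 passed, with a median of -0.03. By the authors' deposited table Ctss, the cathepsin that trims the invariant chain, stood at -0.03 (adjusted p = 0.941) and Cst3, the inhibitor cystatin C, at -0.26 (adjusted p = 0.174). Interferon gamma, the main inducer of Ciita, had 5 reads in all. The 23 tested genes of its pathway had a median of -0.04. Among them the authors' deposited table has Cxcl9, a chemokine, at -0.24 (adjusted p = 0.155) and Igtp, a GTPase, at -0.21 (adjusted p = 0.452). The class I chain and its partner, H2-K1, H2-D1 and B2m, have -0.10, -0.15 and -0.17 by the authors' deposited table, and 6 co-stimulation genes had a median of 0.00.

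Markers of the cells that carry class II were measured beside them. The counts of negative values below stand against 48.9% of all tested genes. Of 16 macrophage markers 0 passed and 8 were negative, with a median of -0.01 and means from 17.7 to 4618. By the authors' deposited table Aif1 was at -0.22 (adjusted p = 0.439), Fcgr1 at -0.21 (adjusted p = 0.464) and Mertk at 0.15 (adjusted p = 0.645). Of 11 tested dendritic cell markers 0 passed and 7 were negative (median -0.03). The lowest values in the authors' deposited table were those of Cd209a, Itgae and Itgax, at -0.16, -0.16 and -0.15. Those not negative were Zbtb46 (0.09), Sirpa (0.03), Fscn1 (0.01) and Ccr7 (0.00). All 7 tested B cell and plasma cell markers had negative values with a median of -0.11, and 0 passed. These are shrunken folds, which can understate changes of low genes. For the 5 low genes with recovered reads, the log2 ratio of Apoe4 to Apoe3 side ran from -1.75 (Ms4a1) to -0.84 (Tnfrsf17). Their shrunken folds were -0.13 and -0.02. Without both libraries highest in B cell reads, the log2 ratio was -0.46 for Pax5, -0.35 for Ms4a1, -0.02 for Cr2 and 2.44 for Fcer2a. Both were picked for their summed reads of these 5 genes and lie on the Apoe3 side, so the ratios rose by construction. The Apoe3 libraries that remained held 1 read of Fcer2a and 0 of Tnfrsf17, for which no ratio could be formed. By the authors' deposited table Cd79a and Cd79b, the signalling chains of the B cell receptor, were at -0.20 (adjusted p = 0.392) and -0.15 (adjusted p = 0.503). Their means were 20.6 and 17.6. Jchain and Sdc1, also of the B cell and plasma cell list, were within 0.01 of 0 at means of 830 and 820. Whether their RNA in this tissue comes from plasma cells was not tested. Of 6 tested T cell markers 0 passed (median -0.08), and Cd247 has -0.16 with an adjusted p of 0.543 by the authors' deposited table. The 3 tested genes of innate lymphoid and mast cells had a median of -0.06. Of 8 sensory neuron markers 0 passed (median -0.02), and of 8 supporting and gland cell markers Cbr2 passed as lower and Bpifb4 as higher, where the authors' deposited table has -0.26 and 0.34 with adjusted p-values of 0.0421 and 2.8e-04. No difference between any list and the class II genes was tested.

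**Figure D4:**
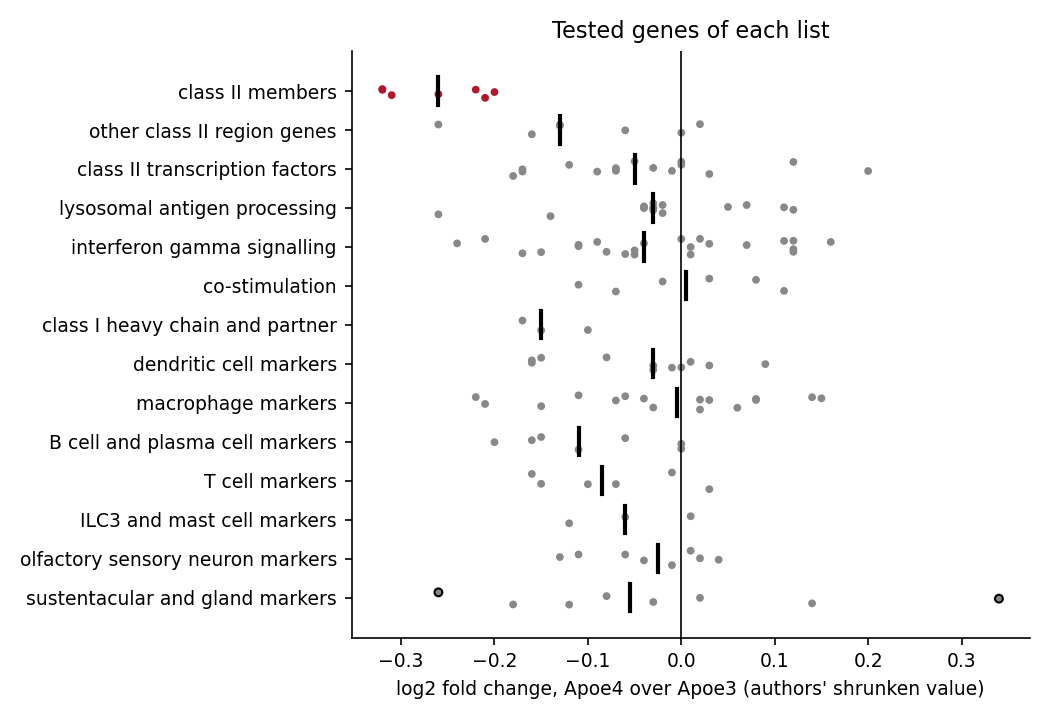
Log2 fold changes (x axis) of the tested genes of each list (rows), 1 point a gene, with the median as a vertical bar and a black outline for the genes past an adjusted p of 0.05. The 7 tested class II genes in red have a median of -0.26, and the medians of the other lists run from -0.15 to 0.00. All values are shrunken by the authors' fit, so medians of lists of low genes cannot be compared in size with that of class II.

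The median test statistic of all tested genes was -0.93 for transcripts of 1000 to 1500 bases, 0.72 for 5000 to 10000 bases and 0.52 above 10000. The longest transcripts of 5 of the 7 tested class II genes are under 2500 bases. Among tested genes with a longest transcript of 1000 to 1500 bases, which covers Cd74 (1410), H2-Ab1 (1212) and H2-DMb1 (1404), 15% were on the lower side at an unadjusted p under 0.05. The share was 9.37% at 1500 to 2500 bases, the range of H2-Eb1 (1669) and H2-DMa (2005), 3.83% at 2500 to 5000 and 1.24% at 5000 to 10000, where Ciita lies (6007). The trend curve stood at -0.76 at the length of Cd74 and at 0.67 at that of Ciita. With it subtracted, the statistic of Cd74 went from -3.49 to -2.73, that of H2-Eb1 from -3.43 to -2.78 and that of H2-Ab1 from -2.81 to -1.97. That of Ciita went from -1.96 to -2.63, further from 0.

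For H2-Aa the curve was at 0.01 for its longest transcript of 3223 bases, which left -3.37, and at -0.88 for the median length of 977, which left -2.48. H2-DMa and H2-DMb1 were at -1.71 and -1.26 after subtraction. All 7 values stayed negative, and the adjusted p ranged from 0.0951 for H2-Aa to 0.883 for H2-DMb1. The part of transcript length in the folds was not tested beyond this subtraction.

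**Figure D5:**
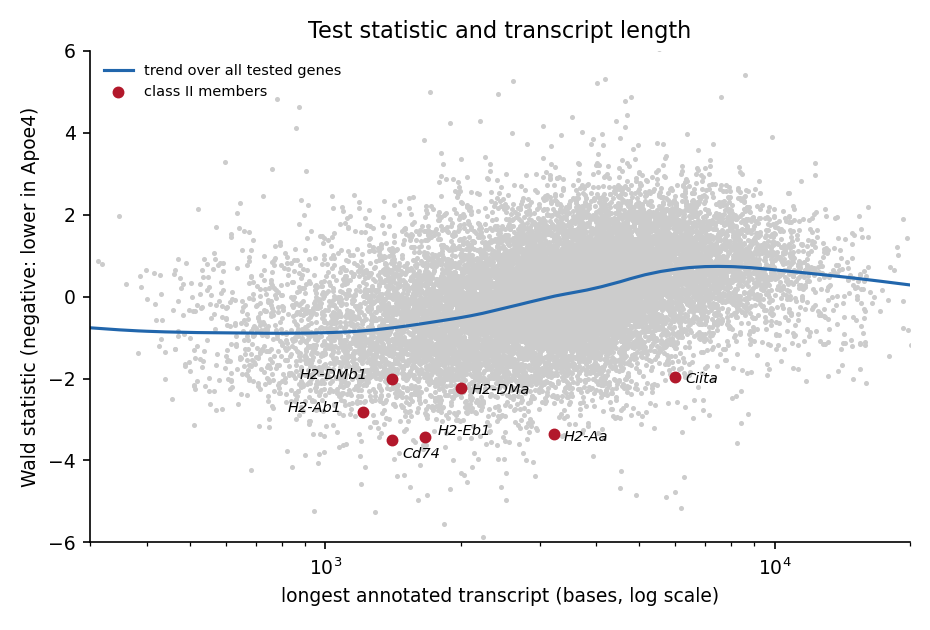
Wald statistic (y axis, negative for lower in Apoe4) against the length of the longest annotated transcript (x axis, log scale), with tested genes in grey, their trend as a blue line and the 7 tested class II genes in red. The plotted range leaves out 53 genes. The red points lie below the line at every length, from 1212 bases (H2-Ab1) to 6007 (Ciita).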

How the data were processed

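The authors deposited 1 table of DESeq2 results per gene for 4 Apoe3 and 6 Apoe4 libraries. Per the submitters' processing notes STAR, featureCounts, DESeq2 and the build GRCm38 were used. The sources used here give no settings, strandedness or annotation file. The table's mean is a signal deposited as read counts divided by a size factor, averaged over libraries by the authors. The log2 fold changes and errors are the authors' shrunken values, the deposited score is the Wald statistic (fold over error), and the p-values deposited were adjusted by the authors over 16050 genes (Benjamini-Hochberg). Unless said otherwise, p-values are the authors' own DESeq2 values, since the table has no values per library and the count test planned for that case could not be run. Those with the length trend removed, against a fold of 1.2 or with another filter were computed here from the deposited statistics and adjusted again.

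Python 3.11.15, scipy 1.17.1 and statsmodels 0.14.6 were used. A positive fold is higher in Apoe4, since lone-read genes formed 10 levels, 6 with positive and 4 with negative folds. Whole reads of genes with a mean under 9.5 were found by a search over all combinations, refined on 932 genes and tested on simulated data, as were the shrinkage formula and the length trend (lowess, fraction 0.3). Intervals are the shrunken fold plus or minus the normal 95% limit and cover the fit's error only, not the shrinkage. Lengths come from GENCODE vM21 (99.5% of tested genes) and positions and promoters from RefSeq GRCm38.p6. Named genes were all 8 class II genes, up to 4 genes of smallest p in each list and every list gene past the threshold, of which some are not reported here; others, such as low genes with recovered reads, Ctss and genes of the class II region, were named after their values were seen. Members and lists were chosen with earlier results of these data known. Protein sequences were not used here.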

Additional observations from a re-analysis of the deposited data

How the results depend on the processing

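None of the class II genes passed an adjusted p of 0.05, and the count stayed at 0 with no filter on the mean, with a mean of at least 50, without X and Y genes, with the length trend removed, against a fold of 1.2 and with unshrunken folds. Some of this is fixed by construction, since a fold of 1.2 is a stricter test, unshrunken folds keep the deposited p-values, and only the length trend could turn the sign of a fold, which it did for none of the 7 tested genes. The smallest adjusted p was that of Cd74, at 0.0586 as deposited, 0.0556 with a mean of at least 50, 0.0623 without X and Y genes and 0.0737 with no filter. With the length trend removed Cd74 was at 0.314, and the smallest adjusted p was 0.0951, that of H2-Aa. The 2 genes of the related lists that passed, Cbr2 and Bpifb4, became 1 with no filter on the mean and 1 with the length trend removed, where Bpifb4 passed. With the median transcript length in place of the longest, levels per kilobase were 943 for H2-Aa, 1433 for H2-Ab1, 920 for H2-Eb1, 293 for H2-DMa, 307 for H2-DMb1 and 18.2 for Ciita. For the promoter boxes, 10 to 60 bases between them gave the same 3 genes. Chosen after seeing the data, leaving out 1 library at a time moved the log2 read ratio of H2-Oa between -1.91 and -0.87 and that of H2-Eb2 between -2.58 and -1.23. Without both libraries highest for H2-Oa it was -0.29 for H2-Oa and -1.19 for H2-Eb2. No paired analysis was possible because the table holds no values per library, and for the same reason other normalizations and leaving out replicates were not run for the other genes. Depth limits H2-Oa and H2-Eb2, with 93 and 34 reads in 10 libraries.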
